A study of Rattus norvegicus with 9 samples.

Results

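The genes described here are 34 members of glycolysis and of the response to low oxygen, taken from the deposited table by a list of gene names that was drawn up with earlier results of these data known. They comprise 3 glucose and lactate carriers, 18 glycolytic enzymes, 3 genes of pyruvate dehydrogenase and its kinases, 4 genes of the hypoxia-inducible factor (HIF) system and 6 genes listed as HIF targets. All 34 were found among the 19608 genes of that table. Of these, 31 were among the 10532 genes whose mean over all libraries reached 1 FPKM (fragments per kilobase of gene scaled to the mapped fragments of the library) and were tested. The lactate exporter gene Slc16a3, the oxygen sensor gene Egln3 and the HIF target Ankrd37 stayed below that mean and are given by their values.

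Glycolysis splits glucose into pyruvate in the cytosol, and lactate dehydrogenase turns pyruvate into lactate when it is not passed to mitochondria. Pyruvate dehydrogenase is the gate to the mitochondrial route, and its kinases close that gate. In low oxygen the HIF-1 alpha protein escapes hydroxylation by the Egln enzymes, pairs with Arnt, binds DNA at sites with the core A/GCGTG and raises glycolytic genes and secreted factors such as Vegfa. HIF-1 alpha is regulated mainly at the level of the protein, which was not measured here.

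Gene expression was measured by RNA sequencing in HEI-OC1 cells, an immortalized line derived from the organ of Corti, which holds the hair cells of the cochlea. Cells received cisplatin, a platinum drug that crosslinks DNA, for 24 h (3 libraries), neomycin, an aminoglycoside antibiotic, for 24 h (3 libraries), or phosphate-buffered saline (PBS) for 24 h (3 libraries). All groups were of the same line, no genotype or further agent is given in the labels, and the sources used here give no doses. Both drugs are known to harm hair cells, and the comparisons ask how each of them changed these genes and how their effects differ.

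The scaling totals worked out from the values were 33109128 to 40221089 reads in cisplatin libraries, 27516629 to 34249663 in neomycin libraries and 32510698 to 38243593 in PBS libraries. For a gene 1 kb long, 3 reads are worth 0.0746 to 0.109 FPKM. The hair cell-like label was checked against 11 measured hair cell markers, of which 9, including Pou4f3, Otof, Tmc1, Espn and Cdh23, stayed under 1 FPKM in each of the 9 libraries, while Myo6 (6.65 to 15.7 FPKM) and Myo7a (0.854 to 2.60 FPKM) were detected. Myo6 averaged 7.16 FPKM in cisplatin, 14.9 FPKM in neomycin and 14.5 FPKM in PBS libraries. Myo7a averaged 1.33 FPKM in cisplatin, 2.54 FPKM in neomycin and 0.883 FPKM in PBS libraries. By contrast 9 of 10 markers of fibroblasts or mesenchyme had a mean of at least 1 FPKM, and their summed level was 3289 to 3525 FPKM in cisplatin libraries, 7729 to 7860 FPKM in neomycin libraries and 8785 to 9182 FPKM in PBS libraries. Of 7 measured supporting cell markers, from the other main cell type of the organ of Corti, 5 had a mean of at least 1 FPKM. Gjb2 and Gjb6 were near 0. The sum was 1009 to 1060 FPKM in cisplatin libraries, 1261 to 1392 FPKM in neomycin libraries and 906.8 to 1013 FPKM in PBS libraries. Most of it was S100a6, which averaged 844.3 FPKM in cisplatin, 1204 FPKM in neomycin and 807.6 FPKM in PBS libraries. The others did not follow it throughout. In that order of groups Jag1 averaged 9.89, 6.61 and 15.2 FPKM, and Hes1 59.6, 23.1 and 29.8 FPKM. Cdkn1b averaged 124.8, 89.4 and 108.1 FPKM, and Fgfr3 1.75, 1.60 and 0.812 FPKM. Summed immune, endothelial and glial or neuronal markers stayed under 10 FPKM in each library. The part of these shifts in the results below was not tested. In bulk libraries scaled to their own totals, fewer cells of a type and less RNA per cell cannot be told apart. Both drug comparisons use the same 3 PBS libraries.

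Cisplatin shifted the pathway member by member and not in one direction. Relative to PBS, 13 of the 31 tested members were higher, 13 were lower and 5 did not pass the test (limma on log2(FPKM + 1), Benjamini-Hochberg adjusted p under 0.05). Of all 10532 genes tested 78% passed, 47.5% higher and 30.5% lower, so the share of members that passed was close to the background. The median log2 fold change was -0.06 over the members and 0.12 over all genes tested. TMM factors, which assume that most genes keep their level, shifted the median of all genes to 0.01, and with them 8 members were higher and 15 lower, beside 39% and 37.9% of all genes. With quantile normalization 7 were higher and 15 lower, beside 38.6% and 38% of all genes. Changes of at least 0.5 log2 units numbered 5 higher (Eno2, Adm, Vegfa, Aldoc and Pfkp) and 4 lower (Hif1a, P4ha2, Hk1 and Pfkm), beside 22.6% and 13.5% of all genes. With TMM factors these were 4 higher (without Pfkp) and 7 lower (Slc16a1, Pdk3 and Egln1 added), beside 16.8% and 17.2% of all genes, and with quantile normalization 4 higher and 8 lower (Pfkl added as well), beside 16.2% and 16.9%.

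Neomycin likewise moved members in both directions. Relative to PBS, 13 tested members were higher, 12 were lower and 6 did not pass, beside 66.2% of all genes passing, 37.5% higher and 28.7% lower. The share of members that passed lay above this background, with no test of the difference. The median log2 fold change was 0.02 over the members and 0.04 over all genes. With TMM factors 13 members were higher and 13 lower, beside 32.8% and 33.7% of all genes. Changes of at least 0.5 log2 units were called higher for 6 members (Pfkp, Aldoc, Tpi1, Vegfb, Pfkm and Eno2) and lower for 3 (Vegfa, Pdk3 and Hk2), beside 10.5% and 6.37% of all genes.

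Set directly against neomycin, cisplatin left 12 members higher, 12 lower and 7 not passing, beside 81.6% of all genes passing, 45% higher and 36.6% lower. With TMM factors 10 members were higher and 17 lower, beside 41.1% and 40.2% of all genes. At least 0.5 log2 units separated 4 members that were higher with cisplatin (Vegfa, Eno2, Adm and Slc2a1) and 8 that were lower (Pfkm, Hk1, Pfkl, P4ha2, Hif1a, Pdk1, Egln1 and Vegfb), beside 24.6% and 19.4% of all genes.

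**Figure D1:**
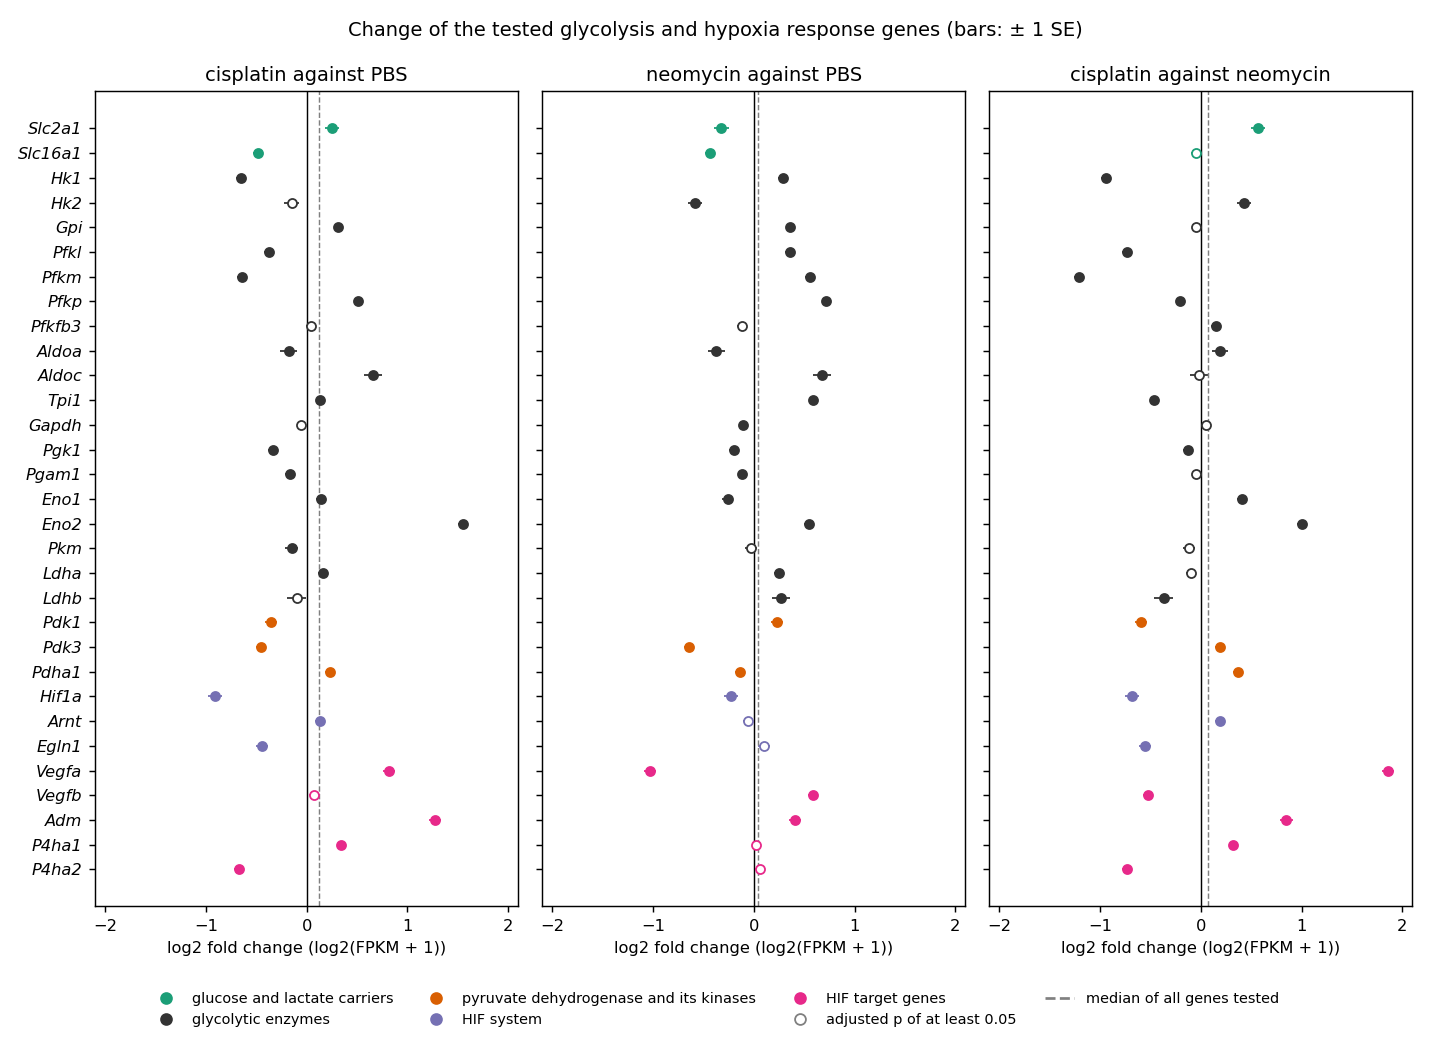
Log2 fold change on the log2(FPKM + 1) scale (x axis) of each tested member (y axis), grouped by role in colour, for cisplatin against PBS, neomycin against PBS and cisplatin against neomycin. Bars are ± 1 SE, open points did not pass an adjusted p of 0.05, and the dashed line is the median of all genes tested; Eno2 (1.55) lies farthest right against PBS in cisplatin and Vegfa (-1.03) farthest left in neomycin.

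Glucose enters these cells through carriers of the Slc2a family, and lactate leaves through Slc16a carriers. Slc2a1, the widespread glucose carrier GLUT1, stood at 16.2, 15.6 and 16.02 FPKM in cisplatin libraries, at 10.3, 11.4 and 9.58 FPKM in neomycin libraries and at 14.5, 12.7 and 12.7 FPKM in PBS libraries. The 3 groups did not overlap, with cisplatin highest and neomycin lowest. Neomycin lowered Slc2a1 relative to PBS (log2 fold change -0.32 ± 0.07 (SE), limma adjusted p = 6.6e-04), and cisplatin exceeded neomycin by 0.57 ± 0.07 (adjusted p = 1.7e-06). Its difference of cisplatin from PBS, 0.25 ± 0.07 (adjusted p = 0.00367), was 0.13 with TMM factors (adjusted p = 0.102).

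Slc16a1, the lactate and pyruvate carrier MCT1, averaged 56.4 ± 1.19 FPKM in cisplatin libraries, 58.4 ± 3.02 FPKM in neomycin libraries and 79.1 ± 2.21 FPKM in PBS libraries (SD, n = 3 each). It fell with cisplatin (-0.48 ± 0.05, limma adjusted p = 2.7e-07) and with neomycin (-0.43 ± 0.05, adjusted p = 2.0e-06), and every drug library lay below every PBS library. Slc16a3, the exporter MCT4 typical of highly glycolytic cells, had 0, 4 and 1 reads in cisplatin libraries and 0 reads in each neomycin and PBS library.

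The main enzyme genes at both regulated early steps fell with cisplatin and rose with neomycin. Hexokinase traps glucose in the cell, and its main form here was Hk1, with 27.8, 28.4 and 25.6 FPKM in cisplatin libraries, 53.7, 54.6 and 50.9 FPKM in neomycin libraries and 44.9, 43.2 and 41.7 FPKM in PBS libraries. No libraries of different groups overlapped, cisplatin being lowest and neomycin highest. Hk1 fell with cisplatin by 0.65 ± 0.05 on the log2 scale (limma adjusted p = 3.2e-08) and rose with neomycin by 0.29 ± 0.05 (adjusted p = 2.0e-04).

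Hk2, the inducible and HIF-responsive hexokinase, followed another order, with 9.37, 9.26 and 8.81 FPKM in cisplatin libraries, 6.72, 7.28 and 5.73 FPKM in neomycin libraries and 10.8, 9.98 and 9.997 FPKM in PBS libraries. It was lowest with neomycin, and again the groups did not overlap. The fall with neomycin was -0.58 ± 0.07 (limma adjusted p = 9.2e-06). The difference of cisplatin from PBS was -0.15 ± 0.07 (adjusted p = 0.0696) and passed with TMM factors (-0.26, adjusted p = 0.00561), without neomycin replicate 2 (-0.15, adjusted p = 0.0486) and without neomycin replicate 3 (-0.15, adjusted p = 0.0281). Cisplatin exceeded neomycin by 0.43 ± 0.07 (adjusted p = 7.2e-05). Hk2 made up 25.1 ± 0.53% of the summed hexokinase FPKM in cisplatin libraries, 11.01 ± 0.83% in neomycin libraries and 19.2 ± 0.35% in PBS libraries (SD, n = 3 each). Shares of this kind were not tested.

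Gpi, which converts glucose-6-phosphate to fructose-6-phosphate, was higher with either drug, at 120.2 ± 3.39 FPKM in cisplatin libraries, 124.7 ± 2.66 FPKM in neomycin libraries and 96.6 ± 1.92 FPKM in PBS libraries (SD, n = 3 each). Its log2 fold changes against PBS were 0.31 ± 0.04 with cisplatin (limma adjusted p = 4.9e-06) and 0.36 ± 0.04 with neomycin (adjusted p = 2.4e-06).

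Phosphofructokinase, the rate-controlling step, has 3 types of subunit, each with its own gene, and these genes moved apart. The muscle-type subunit gene Pfkm had 16.7, 17.0 and 16.6 FPKM in cisplatin libraries, 40.8, 40.1 and 39.2 FPKM in neomycin libraries and 29.0, 26.6 and 24.97 FPKM in PBS libraries. Cisplatin libraries were all below and neomycin libraries all above PBS. Its change was -0.64 ± 0.05 with cisplatin (limma adjusted p = 5.6e-08) and 0.56 ± 0.05 with neomycin (adjusted p = 6.9e-07), and cisplatin stood 1.21 log2 units below neomycin (-1.21 ± 0.05, adjusted p = 6.2e-11).

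The liver-type subunit gene Pfkl showed the same order, with 34.3, 34.8 and 32.2 FPKM in cisplatin libraries, 58.2, 57.4 and 54.8 FPKM in neomycin libraries and 46.0, 42.9 and 42.9 FPKM in PBS libraries. Its log2 fold changes against PBS were -0.37 ± 0.05 with cisplatin (limma adjusted p = 5.6e-06) and 0.36 ± 0.05 with neomycin (adjusted p = 1.4e-05), and groups did not overlap. The platelet-type subunit gene Pfkp instead rose with each drug, having 29.6, 28.1 and 28.1 FPKM in cisplatin libraries, 32.6, 33.5 and 33.4 FPKM in neomycin libraries and 19.8, 19.6 and 19.96 FPKM in PBS libraries. Both drug groups lay wholly above PBS (0.51 ± 0.04, adjusted p = 7.0e-08, for cisplatin and 0.72 ± 0.04, adjusted p = 1.1e-08, for neomycin). Pfkp held 36.1 ± 0.82% of the summed phosphofructokinase FPKM in cisplatin libraries, 25.5 ± 0.74% in neomycin libraries and 21.9 ± 0.94% in PBS libraries, while Pfkm held 21.2 ± 0.48% in cisplatin libraries, 30.8 ± 0.21% in neomycin libraries and 29.6 ± 1.12% in PBS libraries (SD, n = 3 each). Pfkfb3, whose product makes the activator of phosphofructokinase, ranged from 9.41 to 10.1 FPKM in cisplatin libraries, 8.46 to 9.05 FPKM in neomycin libraries and 9.49 to 9.53 FPKM in PBS libraries.

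Aldolase, which cleaves the hexose into 2 trioses, was the step with the lowest summed level, at 6.61 ± 0.44 FPKM in cisplatin libraries, 5.92 ± 0.62 FPKM in neomycin libraries and 6.39 ± 0.21 FPKM in PBS libraries (SD, n = 3 each). The neighbouring steps were far higher, for instance triosephosphate isomerase in PBS libraries at 312.2 ± 16.7 FPKM. Levels of different genes also depend on how well reads matched the gene models, and the sources disagree on the species, so what sets this low level was not tested. Aldoc, the brain-type form, had 1.85, 1.72 and 1.56 FPKM in cisplatin libraries, 1.92, 1.66 and 1.68 FPKM in neomycin libraries and 0.817, 0.883 and 0.480 FPKM in PBS libraries. Every drug library lay above every PBS library, and the ratio of mean FPKM was 2.35 for cisplatin and 2.41 for neomycin. On the log2(FPKM + 1) scale, which understates changes of low genes, these were 0.66 ± 0.09 (limma adjusted p = 1.6e-05) and 0.68 ± 0.09 (adjusted p = 2.2e-05). Aldoa, the widespread form, was lower with neomycin (-0.37 ± 0.08, adjusted p = 7.5e-04), with 3.54 to 4.49 FPKM in neomycin libraries and 5.53 to 5.77 FPKM in PBS libraries.

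Triosephosphate isomerase, Tpi1, had 353.8, 331.4 and 338.3 FPKM in cisplatin libraries, 471.2, 468.5 and 469 FPKM in neomycin libraries and 331.3, 300.2 and 305.1 FPKM in PBS libraries. Neomycin libraries stood clear above both other groups. The rise with neomycin was 0.59 ± 0.04 (limma adjusted p = 8.7e-08), and cisplatin lay 0.46 below neomycin (-0.46 ± 0.04, adjusted p = 2.4e-07). Gapdh, often used as a reference gene, had the highest level of the members, at 986.3 ± 40.5 FPKM in cisplatin libraries, 950.5 ± 4.6 FPKM in neomycin libraries and 1027 ± 46.6 FPKM in PBS libraries (SD, n = 3 each). Its difference of cisplatin from PBS was -0.06 ± 0.04 (adjusted p = 0.244), and with TMM factors it was -0.18 (adjusted p = 0.0039). Pgk1, the first ATP-yielding enzyme, fell with cisplatin (-0.33 ± 0.05, adjusted p = 1.2e-05) and with neomycin (-0.20 ± 0.05, adjusted p = 0.00124). Pgam1, the mutase that follows, fell by less (-0.17 ± 0.04, adjusted p = 9.5e-04, with cisplatin and -0.12 ± 0.04, adjusted p = 0.0116, with neomycin).

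Enolase held the largest rise with cisplatin among the 31 tested members. Eno2, the neuron-type enolase and a marker of neuroendocrine cells, had 99.7, 96.4 and 93.1 FPKM in cisplatin libraries, 49.3, 47.5 and 45.9 FPKM in neomycin libraries and 33.5, 31.5 and 31.4 FPKM in PBS libraries. The groups were widely separated, cisplatin being highest and PBS lowest. Its log2 fold changes were 1.55 ± 0.05 for cisplatin against PBS (limma adjusted p = 2.5e-12), 0.55 ± 0.05 for neomycin against PBS (adjusted p = 2.1e-07) and 1.00 ± 0.05 for cisplatin against neomycin (adjusted p = 9.1e-11). Eno1, the widespread form, stayed the main enolase, with 444.6, 413.0 and 413.8 FPKM in cisplatin libraries, 325.9, 329.3 and 303.3 FPKM in neomycin libraries and 413.5, 371.7 and 367.9 FPKM in PBS libraries. Neomycin libraries were all below the others, a fall of 0.26 ± 0.05 against PBS on the log2 scale (adjusted p = 5.5e-04). With Eno3, the muscle-type form, included, Eno2 made up 17.2 ± 0.35% of the summed enolase FPKM in cisplatin libraries, 12.0 ± 0.25% in neomycin libraries and 7.29 ± 0.15% in PBS libraries (SD, n = 3 each).

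Pyruvate kinase makes pyruvate and ATP, and lactate dehydrogenase makes lactate. Pkm averaged 300.8 ± 13.1 FPKM in cisplatin libraries, 327.1 ± 13.8 FPKM in neomycin libraries and 333.9 ± 27.0 FPKM in PBS libraries (SD, n = 3 each). A separate entry described as an M2 pyruvate kinase-like gene (LOC100362738) averaged 81.1 FPKM in cisplatin, 86.9 FPKM in neomycin and 88.9 FPKM in PBS libraries, 26.7% of the level of Pkm, so Pkm is uncertain where reads could be shared between the entries. Ldha, the lactate-forming subunit, rose with neomycin (0.25 ± 0.05, limma adjusted p = 3.3e-04) to 351.0 to 373.3 FPKM in neomycin libraries, against 285.6 to 324.7 FPKM in PBS libraries. An Ldha-like entry (RGD1562690) held 5.89% of the level of Ldha, and like entries of Gapdh, Pgk1, Tpi1 and Eno1 held at most 1.93% over all libraries. In neomycin libraries the Gapdh-like entry held 3.84% of the level of Gapdh, with 1 library far above the other two. Ldhb, the subunit that favours the reverse reaction, was near the detection filter, at 0.724 to 1.09 FPKM in cisplatin libraries, 1.42 to 1.67 FPKM in neomycin libraries and 0.940 to 1.30 FPKM in PBS libraries, and Ldha made up on average 99.72% of the summed lactate dehydrogenase FPKM in cisplatin libraries, 99.59% in neomycin libraries and 99.64% in PBS libraries.

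**Figure D2:**
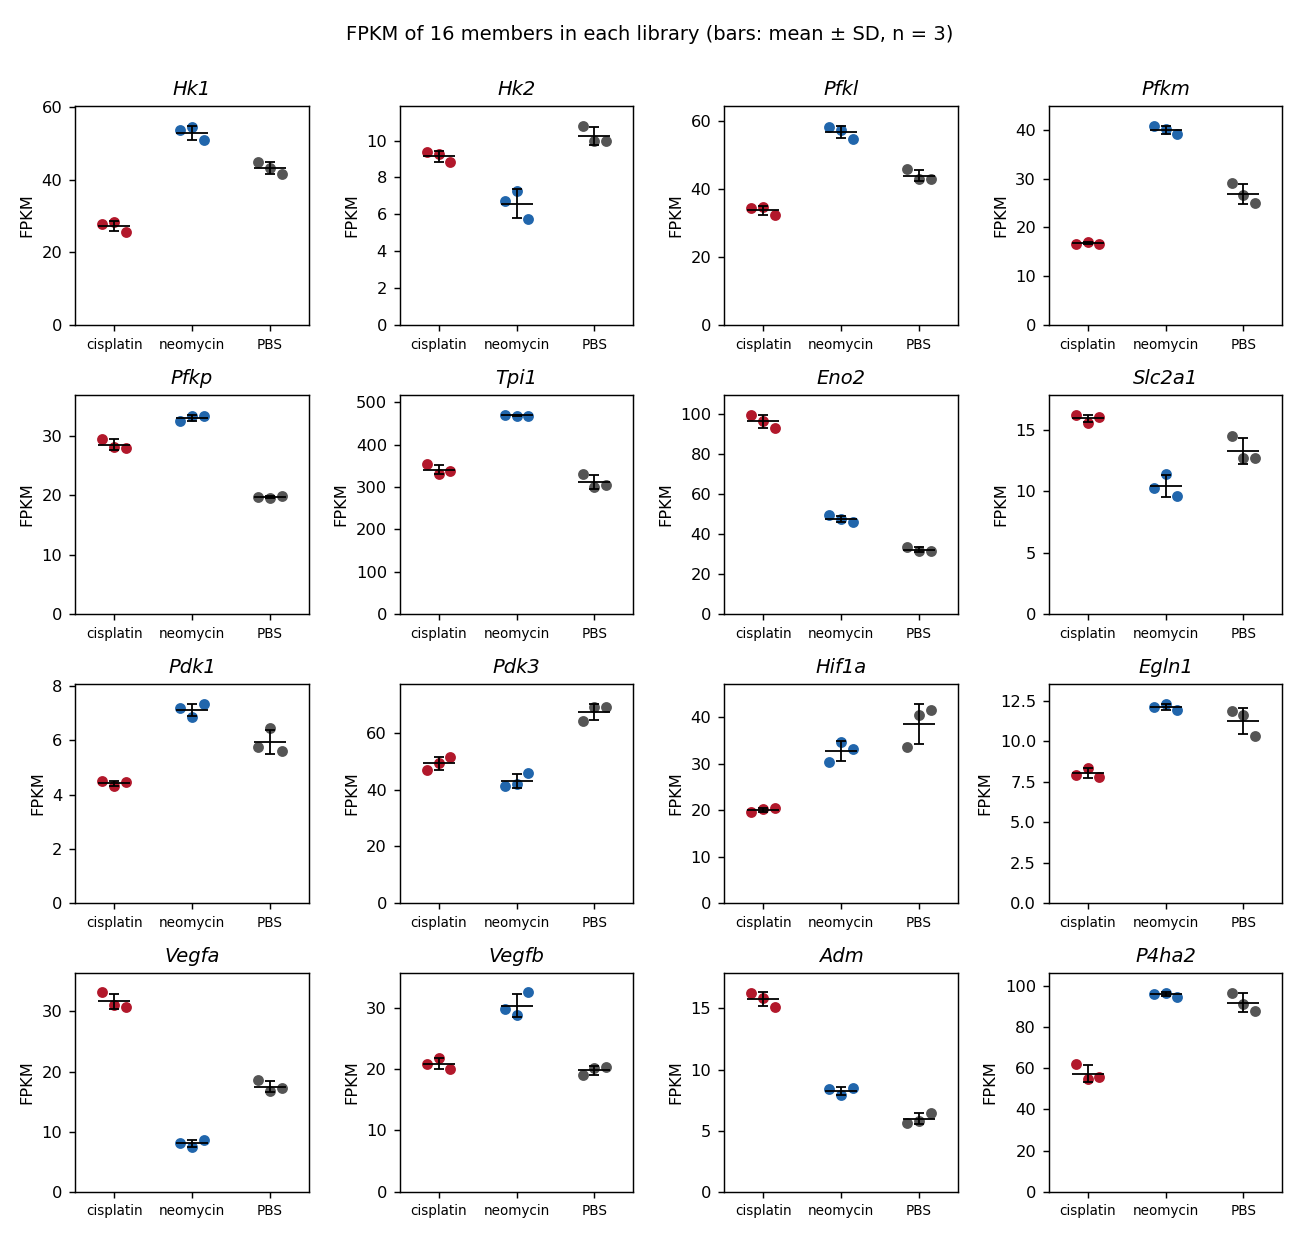
FPKM (y axis, from 0) of 16 members in each library, grouped on the x axis as cisplatin, neomycin and PBS; points are libraries, bars the mean ± SD of 3. Hk1, Pfkl and Pfkm are lowest with cisplatin and highest with neomycin, Vegfa shows the opposite order (30.8 to 33.2 FPKM with cisplatin and 7.51 to 8.54 FPKM with neomycin), and Eno2 and Adm are highest with cisplatin.

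The member isoenzymes were also summed by step. Hexokinase totalled 36.4 ± 1.75 FPKM in cisplatin libraries, 59.6 ± 2.70 FPKM in neomycin libraries and 53.6 ± 2.03 FPKM in PBS libraries. Phosphofructokinase totalled 79.2 ± 1.93 FPKM in cisplatin libraries, 129.9 ± 2.30 FPKM in neomycin libraries and 90.6 ± 3.65 FPKM in PBS libraries. The member enolases, Eno1 and Eno2, went the other way, with 520.2 ± 21.0 FPKM in cisplatin libraries, 367.1 ± 15.5 FPKM in neomycin libraries and 416.5 ± 26.5 FPKM in PBS libraries (SD, n = 3 each). Cisplatin had the lowest level at both regulated early steps and the highest level at enolase. The 18 enzymes together took 0.642 ± 0.019% of all reads in cisplatin libraries, 0.668 ± 0.012% in neomycin libraries and 0.646 ± 0.032% in PBS libraries (SD, n = 3 each), and these ranges overlapped.

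**Figure D3:**
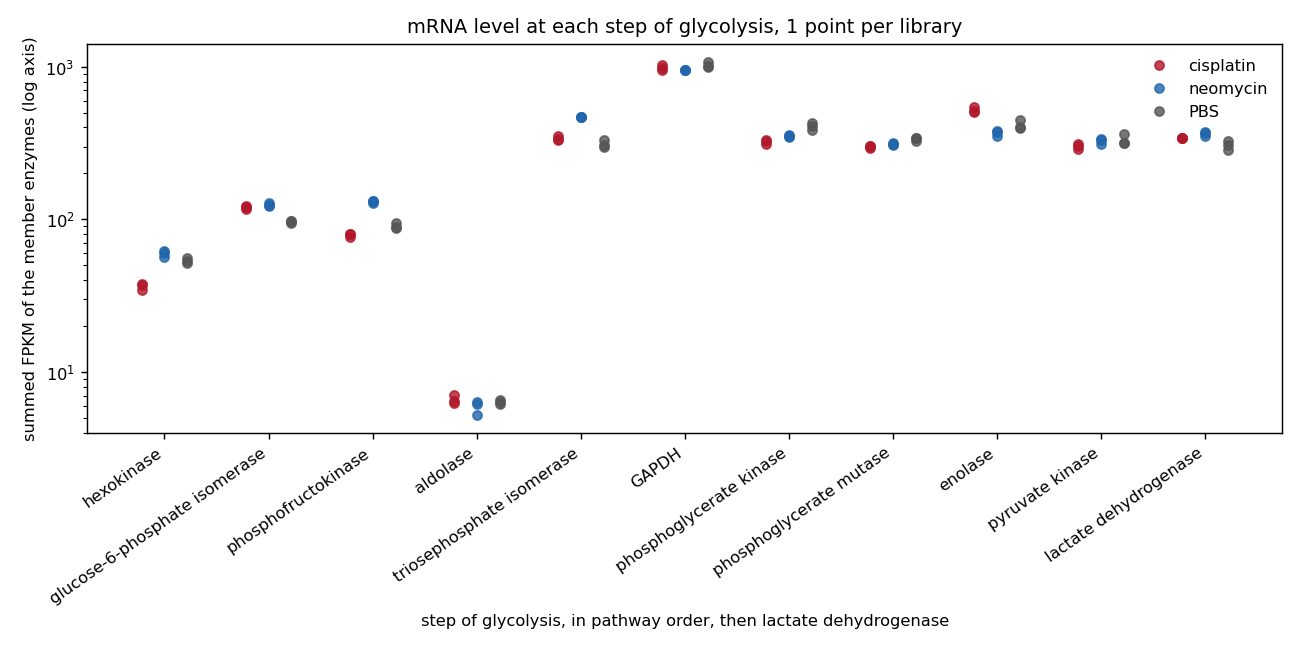
Summed FPKM of the member enzymes (y axis, log scale) at each step of glycolysis in pathway order and at lactate dehydrogenase (x axis), 1 point per library, cisplatin left, neomycin centre, PBS right. Hexokinase and phosphofructokinase are lowest with cisplatin (36.4 and 79.2 FPKM on average), enolase is highest with cisplatin (520.2 FPKM), and aldolase lies below 10 FPKM in every library.

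**Figure D4:**
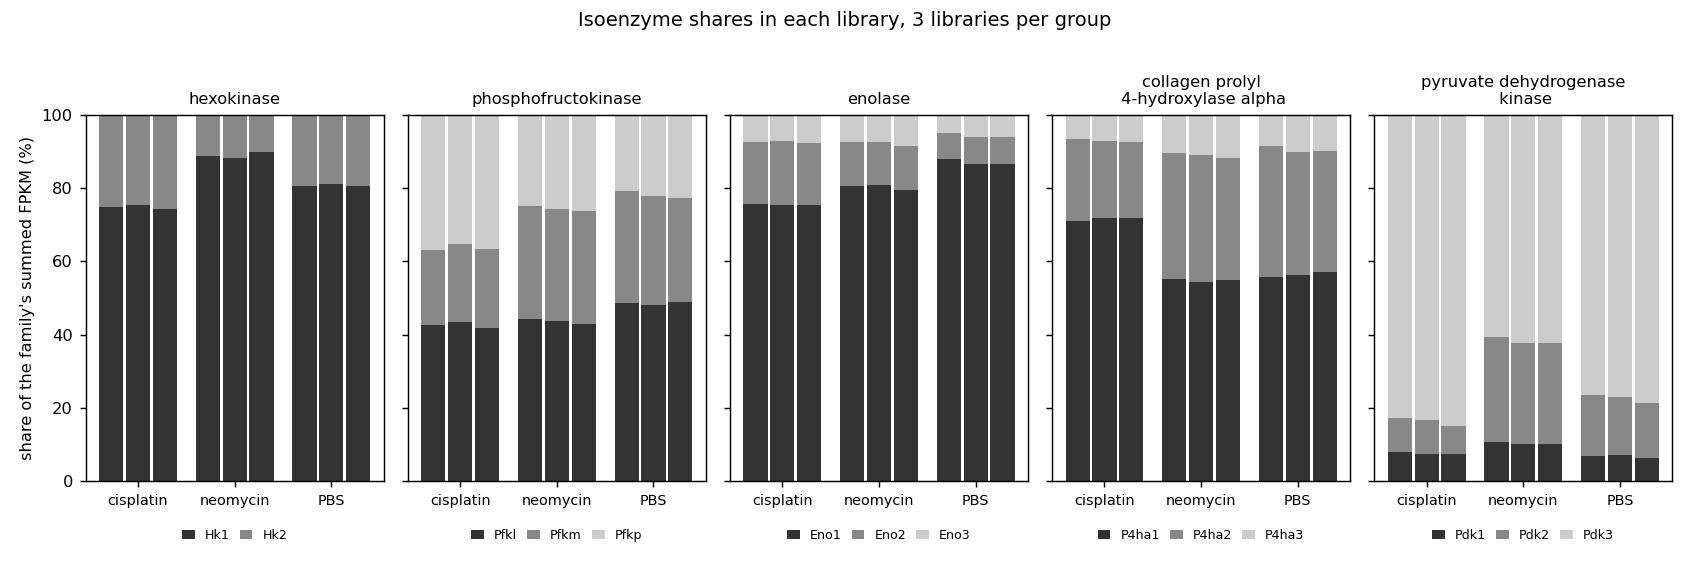
Share of each isoenzyme gene in the summed FPKM of its family (y axis, percent) in each library, 3 bars per group, for hexokinase, phosphofructokinase, enolase, collagen prolyl 4-hydroxylase alpha subunits and pyruvate dehydrogenase kinases. Libraries of a group lie close together in each panel, and Hk2, for example, holds 25.1% with cisplatin, 11.01% with neomycin and 19.2% with PBS.

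Among the genes that gate pyruvate into mitochondria, Pdk3, an inhibitory kinase, was the main kinase gene, with 47.0, 49.3 and 51.4 FPKM in cisplatin libraries, 41.2, 42.1 and 45.7 FPKM in neomycin libraries and 64.1, 69.2 and 69.1 FPKM in PBS libraries. All drug libraries lay below all PBS libraries. It fell with cisplatin (-0.45 ± 0.05, limma adjusted p = 2.3e-06) and with neomycin (-0.64 ± 0.05, adjusted p = 1.8e-07). Pdk1, the HIF-induced kinase of textbooks, had 4.49, 4.30 and 4.46 FPKM in cisplatin libraries, 7.19, 6.88 and 7.33 FPKM in neomycin libraries and 5.75, 6.44 and 5.61 FPKM in PBS libraries. Cisplatin libraries were lowest and neomycin libraries highest, with no overlap (-0.35 ± 0.06, adjusted p = 1.0e-04, and 0.23 ± 0.06, adjusted p = 0.00431, against PBS). Pdha1, the catalytic alpha subunit of the enzyme itself, was higher with cisplatin (0.23 ± 0.05, adjusted p = 5.1e-04), at 70.4 to 72.6 FPKM in cisplatin libraries, 52.6 to 56.0 FPKM in neomycin libraries and 56.8 to 63.6 FPKM in PBS libraries. That call was kept with TMM factors (0.11, adjusted p = 0.045) and lost with quantile normalization (0.04, adjusted p = 0.456).

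In the HIF system, cisplatin lowered the mRNA of the oxygen-regulated subunit. Hif1a had 19.5, 20.2 and 20.5 FPKM in cisplatin libraries, 30.4, 34.7 and 33.2 FPKM in neomycin libraries and 33.6, 40.5 and 41.7 FPKM in PBS libraries. Cisplatin libraries lay far below the others, while neomycin and PBS libraries overlapped. The fall with cisplatin was -0.91 ± 0.07 (limma adjusted p = 4.3e-08). With neomycin it was -0.23 ± 0.07 (adjusted p = 0.0135), a call lost without neomycin replicate 1 (-0.17, adjusted p = 0.0628), PBS replicate 2 (-0.19, adjusted p = 0.0585) or PBS replicate 3 (-0.17, adjusted p = 0.07).

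Egln1, the prolyl hydroxylase that marks HIF-1 alpha for destruction in oxygen, had 7.92, 8.37 and 7.77 FPKM in cisplatin libraries, 12.2, 12.4 and 12.0 FPKM in neomycin libraries and 11.9, 11.6 and 10.4 FPKM in PBS libraries. It was lowest with cisplatin, with no overlap (-0.44 ± 0.06, limma adjusted p = 7.2e-06, against PBS and -0.55 ± 0.06, adjusted p = 7.1e-07, against neomycin). Egln3, a hydroxylase that HIF itself induces, had 1 read in all 9 libraries together. Arnt, the constant partner subunit, ranged from 23.3 to 24.1 FPKM in cisplatin libraries, 19.7 to 21.6 FPKM in neomycin libraries and 21.1 to 22.1 FPKM in PBS libraries.

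Of the 5 tested members listed as HIF targets, 3 were higher and 1 lower with cisplatin (median log2 fold change 0.34), beside 47.5% and 30.5% of all genes, and 2 were higher and 1 lower with neomycin (median 0.06), beside 37.5% and 28.7% of all genes. Vegfa, the main growth factor for blood vessels, had 33.2, 31.1 and 30.8 FPKM in cisplatin libraries, 8.07, 7.51 and 8.54 FPKM in neomycin libraries and 18.5, 16.7 and 17.3 FPKM in PBS libraries. The drugs moved it in opposite directions, each group being clear of the others. It rose with cisplatin (0.82 ± 0.06, limma adjusted p = 1.0e-08) and fell with neomycin (-1.03 ± 0.06, adjusted p = 6.1e-09), and the direct difference, 1.86 ± 0.06 (adjusted p = 2.7e-12), was the largest of any tested member. Its relative Vegfb, on the list of targets although it is not a classical hypoxia gene, had 20.8, 21.8 and 20.1 FPKM in cisplatin libraries, 29.8, 28.8 and 32.5 FPKM in neomycin libraries and 19.0, 20.2 and 20.3 FPKM in PBS libraries. Neomycin libraries stood above both other groups (0.59 ± 0.05, adjusted p = 5.8e-07, against PBS), and cisplatin overlapped PBS (0.07 ± 0.05, adjusted p = 0.243).

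Adm, which encodes the vasodilator adrenomedullin, had 16.2, 15.9 and 15.1 FPKM in cisplatin libraries, 8.38, 7.91 and 8.53 FPKM in neomycin libraries and 5.61, 5.81 and 6.49 FPKM in PBS libraries. It was highest with cisplatin and lowest in PBS, without overlap. The log2 fold changes were 1.27 ± 0.06 with cisplatin (limma adjusted p = 2.1e-10) and 0.41 ± 0.06 with neomycin (adjusted p = 3.8e-05). Ankrd37, an ankyrin repeat gene known as a HIF target, had 14, 21 and 23 reads in cisplatin libraries, 24, 6 and 24 reads in neomycin libraries and 14, 10 and 15 reads in PBS libraries.

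The catalytic subunits of collagen prolyl 4-hydroxylase, which HIF is known to induce, parted with cisplatin. P4ha2 had 62.0, 54.7 and 55.6 FPKM in cisplatin libraries, 96.1, 96.7 and 94.8 FPKM in neomycin libraries and 96.8, 91.0 and 87.9 FPKM in PBS libraries. Cisplatin libraries were far below the others, whereas neomycin and PBS libraries overlapped (-0.67 ± 0.05, limma adjusted p = 2.9e-08, for cisplatin and 0.06 ± 0.05, adjusted p = 0.309, for neomycin, each against PBS). P4ha1 averaged 191.9 ± 4.22 FPKM in cisplatin libraries, 153.7 ± 1.88 FPKM in neomycin libraries and 151.6 ± 1.44 FPKM in PBS libraries (SD, n = 3 each), a rise of 0.34 ± 0.04 with cisplatin (adjusted p = 9.8e-07). With P4ha3 included, the summed level of the family was 268.1 ± 7.81 FPKM in cisplatin libraries, 280.4 ± 3.45 FPKM in neomycin libraries and 268.9 ± 2.06 FPKM in PBS libraries, while the share of P4ha1 was 71.6 ± 0.54% in cisplatin libraries, 54.8 ± 0.31% in neomycin libraries and 56.4 ± 0.70% in PBS libraries (SD, n = 3 each).

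Several small calls were lost with another scaling or when 1 library was left out, which also leaves fewer libraries in its group. For cisplatin against PBS, Tpi1 (0.13), Eno1 (0.14), Ldha (0.16) and Arnt (0.13) were called higher on the values as deposited, and with TMM factors their log2 fold changes were 0.01, 0.02, 0.03 and 0.01, with adjusted p from 0.584 to 0.92. Tpi1 lost the call without cisplatin replicate 1 (0.10), PBS replicate 2 (0.10) or PBS replicate 3 (0.11), and Eno1 without cisplatin replicate 1 (0.11), PBS replicate 2 (0.12) or PBS replicate 3 (0.11). Arnt lost it without cisplatin replicate 1 (0.12) or PBS replicate 2 (0.12), and Ldha without PBS replicate 3 (0.11). Pkm was called lower with cisplatin (-0.15), and not without cisplatin replicate 2 (-0.15), cisplatin replicate 3 (-0.11) or PBS replicate 1 (-0.08). Aldoa was called lower with cisplatin (-0.18, limma adjusted p = 0.0489), and not without cisplatin replicate 2 (-0.15), cisplatin replicate 3 (-0.16), or PBS replicate 1 (-0.16), 2 (-0.19) or 3 (-0.17).

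The same held for a few changes in the other comparisons. For neomycin against PBS, Gapdh was called lower (-0.11, limma adjusted p = 0.0414), but it did not pass when cisplatin replicate 3, any 1 neomycin replicate, or PBS replicate 1 or 2 was left out, with log2 fold changes of -0.12 to -0.07. Ldhb was called higher (0.27), and not without neomycin replicate 2 (0.22), PBS replicate 2 (0.25) or PBS replicate 3 (0.21). Pdha1 was called lower (-0.14), and not without neomycin replicate 2 (-0.11), PBS replicate 2 (-0.11) or PBS replicate 3 (-0.13). For cisplatin against neomycin, Pfkfb3 was called higher (0.15), and not with TMM factors (0.09, adjusted p = 0.111) or without cisplatin replicate 1 (0.13), and Aldoa (0.19) not with TMM factors (0.14, adjusted p = 0.123) or without cisplatin replicate 1 (0.15) or neomycin replicate 3 (0.10). Pgk1 was called lower (-0.13), and not without cisplatin replicate 3 (-0.10). In the same comparison Pkm (-0.12) and Ldha (-0.10) did not pass, but Pkm passed without cisplatin replicate 1 (-0.15), neomycin replicate 3 (-0.16) or PBS replicate 1 (-0.12), and Ldha without neomycin replicate 3 (-0.12), PBS replicate 1 (-0.10) or PBS replicate 3 (-0.10). Pfkfb3 against PBS with neomycin (-0.12, adjusted p = 0.0603) passed without neomycin replicate 3 (-0.14, adjusted p = 0.0433).

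Other genes of these pathways, taken from lists by role, were measured in the same fit. Their counts and medians stand beside those of all genes tested, of which 47.5% were higher and 30.5% lower with cisplatin (median log2 fold change 0.12; with TMM factors 39% and 37.9%) and 37.5% higher and 28.7% lower with neomycin (median 0.04; with TMM factors 32.8% and 33.7%). Of 8 tested glucose, monocarboxylate and pyruvate carriers, 5 were higher and 2 lower with cisplatin (median log2 fold change 0.52), and 5 higher and 2 lower with neomycin (median 0.51). Slc2a3, the high-affinity glucose carrier GLUT3, averaged 16.1 ± 0.60 FPKM in cisplatin libraries, 12.9 ± 0.72 FPKM in neomycin libraries and 6.14 ± 0.38 FPKM in PBS libraries (SD, n = 3 each; log2 fold changes 1.26 ± 0.06, limma adjusted p = 1.9e-10, and 0.96 ± 0.06, adjusted p = 1.6e-08). The glucose carrier gene Slc2a12 fell with cisplatin (-1.36 ± 0.07), and Slc2a8 (0.71 ± 0.06) and the mitochondrial pyruvate carrier subunit Mpc1 (0.56 ± 0.06) rose. With neomycin Slc2a6 (0.73 ± 0.07), Slc2a8 (0.62 ± 0.06) and Bsg, the chaperone of lactate carriers (0.56 ± 0.04), rose.

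Of 10 other tested glycolytic enzymes, 5 were higher and 1 lower with cisplatin (median 0.15; with TMM factors 5 and 4), beside 47.5% and 30.5% of all genes, and 8 were higher and none lower with neomycin (median 0.31; with TMM factors 8 and 2), beside 37.5% and 28.7% of all genes. Tigar, a p53 target whose product lowers the activator of phosphofructokinase, led with cisplatin (1.05 ± 0.06), followed by Eno3 (0.71 ± 0.06), the D-lactate dehydrogenase gene Ldhd (0.57 ± 0.08) and the phosphoglucomutase gene Pgm2 (0.46 ± 0.05). With neomycin the largest rises were in Bpgm, which makes 2,3-bisphosphoglycerate (0.63 ± 0.05), Pgm2 (0.38 ± 0.05), Tigar (0.36 ± 0.06) and Pfkfb4 (0.34 ± 0.07). Of 8 tested genes that complete or regulate pyruvate dehydrogenase, 4 were higher and 3 lower with cisplatin (median 0.03; with TMM factors 2 and 4), and 3 higher and 3 lower with neomycin (median -0.06). The kinase gene Pdk2 averaged 5.17 ± 0.41 FPKM in cisplatin libraries, 19.5 ± 0.76 FPKM in neomycin libraries and 13.7 ± 0.48 FPKM in PBS libraries (SD, n = 3 each), log2 fold changes of -1.25 ± 0.06 (limma adjusted p = 2.1e-10) and 0.48 ± 0.06 (adjusted p = 8.3e-06). Among the kinases Pdk3 held 83.7 ± 1.06% of the summed kinase FPKM in cisplatin libraries, 61.7 ± 1.00% in neomycin libraries and 77.5 ± 1.09% in PBS libraries, and Pdk2 held 8.80 ± 0.88% in cisplatin libraries, 28.1 ± 0.70% in neomycin libraries and 15.7 ± 0.82% in PBS libraries (SD, n = 3 each). With cisplatin the phosphatase gene Pdp2 (0.76 ± 0.07) and the subunit gene Pdhb (0.65 ± 0.05) rose and Pdp1 fell (-0.44 ± 0.06), while with neomycin Dld fell (-0.43 ± 0.05).

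Of 13 further genes of the HIF system, 5 were higher and 3 lower with cisplatin (median 0.06; with TMM factors 4 and 5), beside 47.5% and 30.5% of all genes, and 3 higher and 5 lower with neomycin (median -0.01), beside 37.5% and 28.7% of all genes. Arnt2, a paralogue of Arnt, averaged 3.53 ± 0.35 FPKM in cisplatin libraries, 20.01 ± 1.41 FPKM in neomycin libraries and 13.7 ± 0.38 FPKM in PBS libraries (SD, n = 3 each; -1.70 ± 0.07, limma adjusted p = 3.2e-11, and 0.52 ± 0.07, adjusted p = 1.2e-05). Parts of the ligase that degrades HIF-1 alpha rose with cisplatin, namely Rbx1 (0.73 ± 0.05), Elob (0.56 ± 0.05) and Eloc (0.52 ± 0.08). Cited2, a HIF-induced inhibitor of HIF transcription, fell with neomycin (-0.81 ± 0.04), as did the ligase gene Siah2 (-0.59 ± 0.08), whereas the coactivator gene Crebbp rose (0.52 ± 0.06). For Vhl and Cul2, further parts of that ligase named after their values were seen, the log2 fold changes with cisplatin were -0.12 ± 0.05 (adjusted p = 0.0593) and 0.00 ± 0.04 (adjusted p = 0.98). With TMM factors both were called lower, Vhl at -0.24 (adjusted p = 0.00146) and Cul2 at -0.12 (adjusted p = 0.0307). Rbx1, Elob and Eloc stayed higher under that scaling, at 0.61, 0.44 and 0.40. The 2 listed genes that were not tested, Epas1, which encodes HIF-2 alpha, and Hif3a, averaged at most 0.00182 FPKM in each group.

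The list of 29 further tested HIF target genes divided with cisplatin into 14 higher and 10 lower (with TMM factors 11 and 12; median 0.02), close to the 47.5% and 30.5% of all genes, and with neomycin into 7 higher and 10 lower (median -0.01), beside 37.5% and 28.7% of all genes. Edn1, which encodes the vasoconstrictor endothelin, showed the largest rise with cisplatin, with 22.9 ± 1.58 FPKM in cisplatin libraries, 0.944 ± 0.20 FPKM in neomycin libraries and 1.04 ± 0.26 FPKM in PBS libraries (SD, n = 3 each; 3.56 ± 0.10, limma adjusted p = 1.3e-12). The ubiquitin ligase adaptor Wsb1 also rose (2.26 ± 0.05), while the mTOR inhibitor Ddit4 fell (-1.65 ± 0.07). Many of these genes are also known to respond to signals other than low oxygen. With neomycin the carbonic anhydrase gene Car9 rose (0.85 ± 0.05), at 38.3 ± 1.12 FPKM in cisplatin libraries, 71.7 ± 0.31 FPKM in neomycin libraries and 39.4 ± 3.21 FPKM in PBS libraries. The nuclear receptor gene Rora rose as well (0.61 ± 0.08), and Stc2, which encodes a secreted stanniocalcin (-0.65 ± 0.08) and the transferrin receptor gene Tfrc (-0.56 ± 0.05) fell. Bnip3, a mitophagy receptor and common hypoxia marker named after its values were seen, averaged 14.85 ± 0.76 FPKM in cisplatin libraries, 14.99 ± 1.81 FPKM in neomycin libraries and 14.95 ± 0.98 FPKM in PBS libraries.

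The pentose phosphate pathway branches off after hexokinase and supplies NADPH and ribose. Of its 8 tested genes 2 were higher and 5 lower with cisplatin (median -0.35), beside 47.5% and 30.5% of all genes. With TMM factors 1 was higher and 5 lower, beside 39% and 37.9% of all genes. With neomycin 4 were higher and 2 lower (median 0.10), beside 37.5% and 28.7% of all genes. Pgd, an NADPH-making enzyme of the pathway, fell with cisplatin (-0.75 ± 0.04, limma adjusted p = 5.9e-10) and rose with neomycin (0.65 ± 0.04, adjusted p = 1.2e-08). Rpe, which links it to the non-oxidative arm, moved the other way, with 0.54 ± 0.08 with cisplatin (adjusted p = 2.3e-05) and -0.47 ± 0.08 with neomycin (adjusted p = 1.5e-04).

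**Figure D5:**
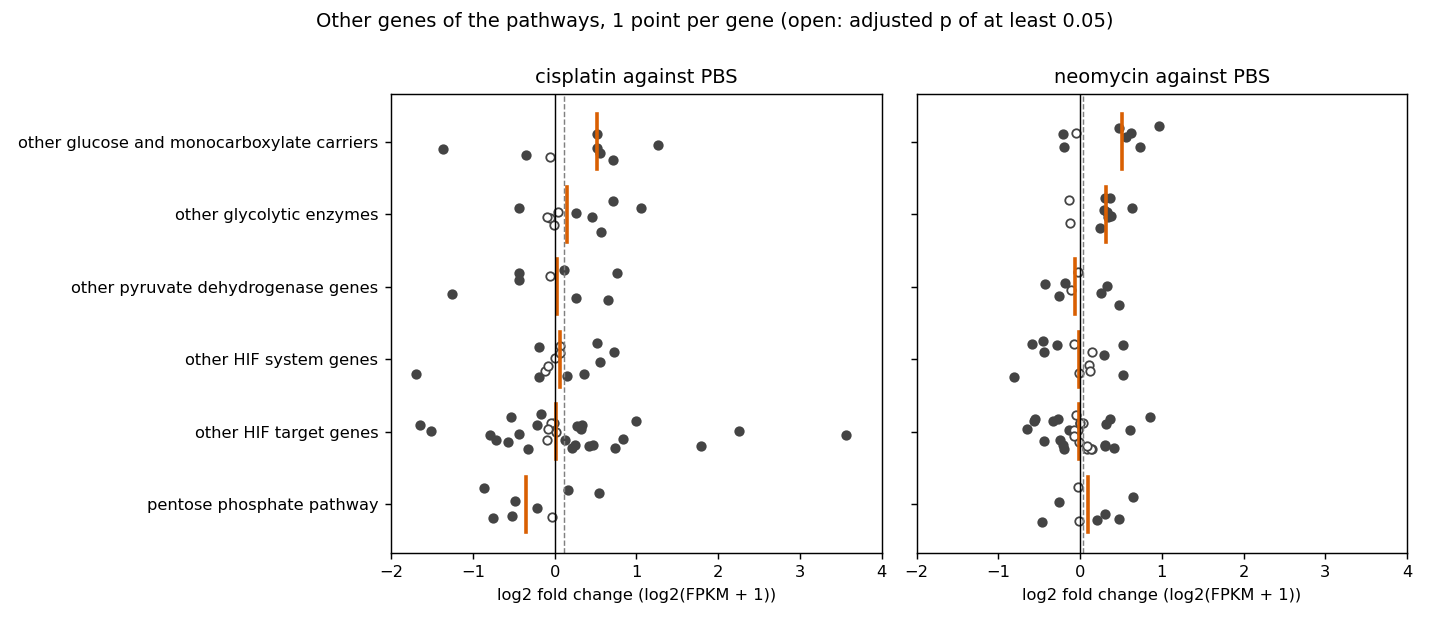
Log2 fold change on the log2(FPKM + 1) scale (x axis) of the other tested genes of each list (y axis), 1 point per gene, for cisplatin against PBS and neomycin against PBS. Filled points passed an adjusted p of 0.05, the vertical bar is the list's median and the dashed line the median of all genes tested; Edn1 (3.56) and Wsb1 (2.26) lie farthest right and Arnt2 (-1.70) farthest left with cisplatin.

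For the 3 members with the widest range of group means, the genes with the closest profile over the 3 group means were looked up among all 10532 tested genes, as a description over 3 points. Nearest to Vegfa by Euclidean distance on the centred log2(FPKM + 1) scale were Fv1 (0.08), Aen (0.11) and Ppp1r15a (0.11). Nearest to Eno2 were Errfi1, Dtl and Pkp2 (0.04 each), and nearest to Adm were LOC103690190, annotated as a histone H2A gene (0.02), N4bp3 (0.02) and Nupr2 (0.03).

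The 250 bases before the first listed start site of each member were searched for the HIF core motifs ACGTG and GCGTG on both strands. Other start sites of a member and sequence farther upstream were not searched. The windows are rat sequence from RefSeq on the assembly GRCr8, and HEI-OC1 cells are known to come from mouse, so they may differ from those of the cells. A window was on hand for 33 of the 34 members (none for Pgk1). At least 1 motif was present in 23 of the 33 windows (69.7%), in 57.9% of the 8778 windows of tested genes and in 36.7% of all 33469 windows. The median GC content was 63.6% in the members' windows, 60.4% in those of tested genes and 51.2% in all windows. The motif CACGTG, which other factors also bind, reads as ACGTG on both strands and was counted on each. For cisplatin against PBS, 9 of 22 tested members with a motif were higher and 9 lower, beside 4 higher and 3 lower of 8 without one. For neomycin against PBS, 9 of 22 with a motif were higher and 8 lower, beside 4 and 3 of 8 without one. Of all genes tested 47.5% were higher and 30.5% lower with cisplatin, and 37.5% higher and 28.7% lower with neomycin. The calls of all genes were not split by motif. Vegfa and Adm held none of these letters in this window.

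The windows of Eno2, the member that rose most with cisplatin, of Slc2a1, whose 3 groups did not overlap, and of P4ha1 and P4ha2, which moved apart, are shown 5′ to 3′ towards the start site, with the motif of either strand in capitals. These windows were picked with the values known, and all of them hold a motif. The groups of Hk1, Hk2, Vegfa and Adm did not overlap either, and their windows hold none. Eno2 lies at chr4:159267221-159267470 (minus strand) and holds 1 motif, Slc2a1 at chr5:138002272-138002521 (plus strand) holds 4, P4ha1 at chr20:27844796-27845045 (plus strand) holds 2, and P4ha2 at chr10:38743644-38743893 (plus strand) holds 5.
Eno2: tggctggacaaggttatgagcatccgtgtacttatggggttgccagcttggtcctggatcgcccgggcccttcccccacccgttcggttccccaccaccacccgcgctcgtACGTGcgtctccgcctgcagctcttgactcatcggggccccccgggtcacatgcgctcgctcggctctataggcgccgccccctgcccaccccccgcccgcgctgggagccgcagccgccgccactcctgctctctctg
Slc2a1: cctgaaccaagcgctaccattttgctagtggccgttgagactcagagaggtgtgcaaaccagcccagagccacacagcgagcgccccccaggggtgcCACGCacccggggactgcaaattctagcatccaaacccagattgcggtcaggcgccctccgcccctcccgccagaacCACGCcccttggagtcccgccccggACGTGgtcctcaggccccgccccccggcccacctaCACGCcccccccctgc
P4ha1: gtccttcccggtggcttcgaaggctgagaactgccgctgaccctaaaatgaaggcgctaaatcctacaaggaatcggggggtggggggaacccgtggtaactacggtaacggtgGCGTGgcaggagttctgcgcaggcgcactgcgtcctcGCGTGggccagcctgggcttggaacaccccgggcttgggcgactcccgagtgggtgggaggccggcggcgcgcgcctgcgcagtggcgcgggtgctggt
P4ha2: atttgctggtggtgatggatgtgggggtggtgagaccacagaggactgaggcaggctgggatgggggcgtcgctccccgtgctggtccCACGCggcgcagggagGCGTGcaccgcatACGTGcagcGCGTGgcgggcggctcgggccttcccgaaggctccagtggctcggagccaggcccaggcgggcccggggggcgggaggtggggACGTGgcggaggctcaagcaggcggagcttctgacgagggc
P4ha2, with the most motifs of the 4, fell with cisplatin (-0.67), whereas P4ha1 (0.34, with 2 motifs) and Eno2 (1.55, with 1 motif) rose, and Slc2a1, with 4 motifs, was called higher (0.25) but not with TMM factors (0.13); a match of these letters is a description and does not show that HIF binds there.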

How the data were processed

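RNA was sequenced from HEI-OC1 cells in 9 libraries, 3 per group, grouped by title. The final number of the cell-line label changes with every sample, but the series text speaks of HEI-OC1 only, so the libraries were treated as 1 line. No source states separate cultures, and the p-values therefore measure the spread of these samples alone, possibly a technical one. The authors deposited FPKM values, named so per the file headers. The sources used here name no aligner, counter, annotation or strand setting. The labels and the gene identifiers of the table are those of rat, mm10, a mouse build, is named in the submitters' processing notes, and HEI-OC1 cells are known to come from mouse, so levels of different genes are uncertain, and reads of overlapping or antisense genes may be shared. No coordinates are given for the FPKM values.

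The 34 members and all other lists were chosen with earlier results of these data known. The 10532 genes averaging at least 1 FPKM were tested on log2(FPKM + 1) with limma 3.58.1 in R 4.3.3, with 1 mean per group, all 9 libraries and a mean-variance trend, and p-values were adjusted within each comparison by the Benjamini-Hochberg method at 0.05. The tested genes had at least 99 reads over all libraries. Whole reads were worked out from the FPKM steps for all 19608 genes (100%, tolerance 0.001 of a read). Per-library values are given for members with a log2 fold change of at least 0.5 in either direction in some comparison. Of the other lists up to 4 called genes per comparison are named by size of change, and genes outside this rule are marked as named after their values were seen. Pgk2 and Pdk4 were not analysed here, and a few listed genes that this rule would name are not reported here. The test was checked on simulated reads with known answers. In these few genes changed, equally often up and down, and all genes shared 1 setting of spread, unlike the measured data. Of 50 genes changed 1.2-fold, 35 were called for cisplatin against PBS, 32 for neomycin against PBS and 34 for cisplatin against neomycin. At larger changes at least 47 of 50 were called. The alternatives were a pseudocount of 0.1 FPKM, no filter on low values, a minimum mean of 5 FPKM, TMM factors, quantile normalization, voom on whole reads, only the 2 groups compared, a replicate block and leaving out each library.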

Additional observations from a re-analysis of the deposited data

How the results depend on the processing

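The number of members called higher with cisplatin against PBS, 13 on the values as deposited, was 8 with TMM factors and 7 with quantile normalization (38.6% of all genes higher and 38% lower), since both scalings shift cisplatin values down. Members lower by at least 0.5 log2 units in that comparison numbered 4 on the values as deposited, 7 with TMM factors and 8 with quantile normalization. Genes higher by at least 0.5 log2 units with neomycin against PBS numbered 1108, and 734 at a minimum mean of 5 FPKM, where fewer genes were tested. The other counts of calls and of changes of at least 0.5, over members and over all genes, stayed within 1.5 times under each alternative. Voom on whole reads called 5037 genes higher and 3274 lower with cisplatin against PBS, and 13 members each way. Of the changes called on the values as deposited, 4 small ones turned in direction, all with quantile normalization and none of them passing there: Tpi1 (-0.00, adjusted p = 0.977), Eno1 (-0.00, adjusted p = 0.953) and Arnt (-0.03, adjusted p = 0.598) for cisplatin against PBS, and Pdk3 (-0.00, adjusted p = 0.991) for cisplatin against neomycin. Leaving out 1 library gave 10 to 13 members higher and 11 to 14 lower for cisplatin against PBS, 12 to 13 and 9 to 12 for neomycin against PBS, and 10 to 12 and 11 to 14 for cisplatin against neomycin. Over all genes these fits gave 4739 to 5033 higher and 3048 to 3233 lower for cisplatin against PBS, 3669 to 3887 and 2737 to 2999 for neomycin against PBS, and 4543 to 4800 and 3689 to 3925 for cisplatin against neomycin. Single changes of a member by at least 0.5 log2 units kept direction and call in all alternatives in which the member was tested. Smaller changes of the same members in other comparisons did not always do so.

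Same-numbered libraries did not deviate together throughout. The correlations of their deviations from group means ran from -0.0458 to 0.304, and those of differently numbered libraries from -0.287 to 0.188. Among libraries numbered 1 they were 0.131, 0.213 and 0.304, and among libraries numbered 2 they ran from -0.0458 to 0.0278. Whether libraries of a number share a source of spread was not tested. The main fit did not take the numbers as pairs, and a replicate block was fitted as an alternative. With the replicate block no member lost a call and 3 gained one, Hk2 for cisplatin against PBS (-0.15, adjusted p = 0.0407) and Pkm (-0.12, adjusted p = 0.0191) and Ldha (-0.10, adjusted p = 0.036) for cisplatin against neomycin. The 3 untested members had 1 to 151 reads in all.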

Other observations

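An entry annotated as a Gapdh pseudogene (LOC108352348) varied far more within the neomycin group than Gapdh did. It had 8.17, 11.5 and 89.9 FPKM in neomycin replicates 1, 2 and 3. It averaged 9.46 ± 0.94 FPKM in cisplatin libraries, 36.5 ± 46.2 FPKM in neomycin libraries and 11.3 ± 1.40 FPKM in PBS libraries (SD, n = 3 each), while Gapdh itself averaged 986.3 ± 40.5 FPKM in cisplatin libraries, 950.5 ± 4.6 FPKM in neomycin libraries and 1027 ± 46.6 FPKM in PBS libraries. The source of that spread was not tested.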
